A study of Mus musculus with 2 samples.

Results

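CC chemokines that attract monocytes, and the receptors that bind them, were followed across the cell types of the maxillary periodontium of mice, that is, the gingiva, ligament and bone around the upper teeth. The 8 genes were taken by symbol from the 32285 genes of each deposited matrix. They comprise 6 chemokines, Ccl2, Ccl7, Ccl8, Ccl3, Ccl4 and Ccl11, and 2 receptors, Ccr1 and Ccr2. All 8 were detected in both libraries, and the rule that picks them uses gene symbols alone.

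The study profiled single cells in 2 droplet libraries made with the 10x Genomics 3' v3 kit, titled 377P and RP, with 1 library per title. Its title concerns how periodontitis resolves in diabetic mice. The labels give the organism and the tissue and name no strain, genotype, age, treatment or time, so neither library is treated as a control. They do not say how many animals were pooled, and each difference between the libraries is a difference between 2 libraries with no replicate check.

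CC chemokines are small secreted proteins named for a pair of adjacent cysteines, and they guide leukocytes through G protein-coupled receptors. Ccl2, Ccl7 and Ccl8 belong to the monocyte chemoattractant protein group, of which Ccl2 and Ccl7 bind Ccr2, the receptor that draws classical monocytes out of the bone marrow. Ccl3 and Ccl4 are the macrophage inflammatory proteins. Ccl3 binds Ccr1. Ccl11, or eotaxin, draws eosinophils through Ccr3. In periodontitis these molecules are known for bringing monocytes, the precursors of macrophages and osteoclasts, into the gingiva and to the alveolar bone.

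After filters on genes, mitochondrial UMIs (unique molecular identifiers, each marking 1 captured mRNA) and doublets, 14515 cells in 377P and 16721 in RP were kept, with medians of 5102 and 4301 UMIs. The libraries shared 82 cell barcodes. Cells were put into classes by marker genes that include no member of the set: a cell needed at least 3 markers of a class above the level that free RNA could give, and a share of that list at least 1.5 times that of any other class. Such a class is a range on a score, not a sharp type. These gates left cells without a class, 24.4% in 377P and 24.2% in RP. Of 19 classes, 11 held at least 50 cells in each library. They included 2651 and 3794 fibroblasts, 334 and 645 monocytes or macrophages, 102 and 145 neutrophils and 484 and 1019 perivascular cells, in 377P and RP. Among the monocytes or macrophages, 32 and 74 cells had exactly 3 markers, and the median cell had 6 of the 10 markers and 0 of those of any other class. As to the labelled tissue, fibroblasts with periodontal ligament markers numbered 453 and 687. The osteoblast gate held 0 and 3 cells, the osteoclast gate 7 and 2, and the skeletal muscle gate none. Cells of gland or respiratory epithelium numbered 182 and 1152. The 2 libraries stood apart when clustered jointly. These Leiden clusters took in all kept cells, also those without a class, and were named from the same markers. Of those named monocytes or macrophages, 1 held 526 and 3 cells (377P, RP) and 1 held 29 and 979. In these, 965 cells were of the gated class and 451 had no class. Clusters named fibroblasts held 2701 and 3 against 5 and 3888, and those named perivascular cells 581 and 15 against 5 and 1251. The cluster named neutrophils held 121 and 168 cells, and that named blood endothelial cells 497 and 1556.

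Levels are sums of a gene's UMIs in a class, per 1000000 UMIs of that class and library (CPM), with exact 95% Poisson intervals in parentheses. Folds carry exact intervals for a ratio of 2 such counts. All intervals cover counting error only. A gene was called different between the libraries where the ratio was at least 2-fold in either direction, a rule of size and not a test. It was applied to genes with at least 20 UMIs in the class over both libraries, in the 10 classes with at least 100 cells each. Levels compare classes, subsets and libraries within a gene, and no level is compared between genes. Ranks and ranges of classes cover the 11 classes with at least 50 cells in each library.

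The chemokine genes lie in clusters on chromosome 11 and the receptor genes on chromosome 9 (GRCm38). Ccl2 (ENSMUSG00000035385, 82035571 to 82037453), Ccl7 (ENSMUSG00000035373, 82045712 to 82047525), Ccl11 (ENSMUSG00000020676, 82057823 to 82062955) and Ccl8 (ENSMUSG00000009185, 82115185 to 82116799) lie in that order on the plus strand within 81.2 kb, with Ccl12 between Ccl11 and Ccl8. Ccl3 (ENSMUSG00000000982, 83647844 to 83649355, minus strand) and Ccl4 (ENSMUSG00000018930, 83662584 to 83664683, plus strand) lie side by side within 16.8 kb. Ccr1 (ENSMUSG00000025804, 123962124 to 123968692, minus strand) and Ccr2 (ENSMUSG00000049103, 124101950 to 124113557, plus strand) lie within 151 kb, with Ccr1l1 and Ccr3 between them. Each chemokine gene has 3 exons. In the last 500 bases of their transcripts no run of 60 bases of any of the 8 genes was shared with a transcript of another gene. Ccl2 overlaps Gm17268, a gene on the opposite strand.

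Promoter sequences from RefSeq (GRCm38.p6, 250 bases before to 50 after the start) were at hand for 4 of the 8 genes, Ccl8, Ccl3, Ccr1 and Ccr2. All 4 are shown. Ccl8 and Ccr2 marked different macrophage subsets, and among the members the levels of Ccl3 and Ccr1 ran most alike across classes. Ccl8 is at chr11:82114935-82115234 (plus strand), Ccl3 at chr11:83649329-83649628 (minus strand), Ccr1 at chr9:123968643-123968942 (minus strand) and Ccr2 at chr9:124101933-124102232 (plus strand). Each is written 5′ to 3′ on the strand of its gene, with motif matches in capitals.
Ccl8: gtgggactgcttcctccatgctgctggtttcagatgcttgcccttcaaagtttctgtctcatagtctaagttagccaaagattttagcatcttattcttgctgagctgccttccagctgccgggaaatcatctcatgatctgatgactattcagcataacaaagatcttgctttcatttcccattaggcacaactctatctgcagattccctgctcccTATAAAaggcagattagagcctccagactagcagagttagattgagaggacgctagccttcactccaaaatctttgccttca
Ccl3: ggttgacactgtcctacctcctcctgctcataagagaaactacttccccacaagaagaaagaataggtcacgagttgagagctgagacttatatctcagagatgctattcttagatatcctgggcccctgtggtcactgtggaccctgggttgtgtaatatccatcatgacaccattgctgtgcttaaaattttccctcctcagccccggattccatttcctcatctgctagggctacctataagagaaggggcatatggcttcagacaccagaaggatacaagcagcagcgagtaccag
Ccr1: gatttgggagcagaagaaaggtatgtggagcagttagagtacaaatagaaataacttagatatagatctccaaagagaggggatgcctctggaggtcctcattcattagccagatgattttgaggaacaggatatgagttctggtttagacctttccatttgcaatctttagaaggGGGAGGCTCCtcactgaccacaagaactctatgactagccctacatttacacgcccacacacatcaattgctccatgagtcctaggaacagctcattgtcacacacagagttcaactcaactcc
Ccr2: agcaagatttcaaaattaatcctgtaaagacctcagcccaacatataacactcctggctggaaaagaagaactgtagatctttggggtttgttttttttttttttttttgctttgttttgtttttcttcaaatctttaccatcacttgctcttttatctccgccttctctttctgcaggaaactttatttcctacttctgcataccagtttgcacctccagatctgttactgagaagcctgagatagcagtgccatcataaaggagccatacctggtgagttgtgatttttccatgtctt
Both strands were searched for NF-kappaB sites, AP-1 sites (TGANTCA), PU.1 sites (AGAGGAAG) and the TATA box (TATAAA). Of 32851 RefSeq promoters of the same length, 8.46%, 7.81%, 4.55% and 13.6% held the 4 motifs, in that order. The Ccl8 promoter held TATAAA, with its first base 32 bases before the start. The Ccr1 promoter held an NF-kappaB match that began 74 bases before the start. The promoters of Ccl3 and Ccr2 held none of these letters.

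Ccl2, the monocyte chemoattractant protein 1 gene, was a gene of fibroblasts. Its level in them was 2681 CPM (2658 to 2704) in 377P and 2144 (2124 to 2164) in RP, and fibroblasts held 72.8% and 72.9% of all Ccl2 UMIs of kept cells. The level in 377P was 1.25-fold that in RP (1.23 to 1.27). Monocytes or macrophages followed at 706 CPM (671 to 743) and 808 (777 to 840), and perivascular cells at 803 (767 to 841) and 645 (620 to 671). These 2 classes changed order between the libraries, and both lay below fibroblasts in each. Lymphatic endothelial cells came next, at 466 CPM in 377P and 362 in RP. The other classes with at least 50 cells lay between 46.9 and 191 CPM.

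A Ccl2 UMI was found in 73.9% of the fibroblasts of 377P and in 67.8% of those of RP. With every cell thinned to 1000 UMIs, the shares were 52.5% and 48.7%. B or plasma cells, which are not known as a source, had 9.46% and 8.53% after thinning and 23.7% and 17.8% before it, with median depths of 2676.5 and 2331.5 UMIs against 6533 and 4731 in fibroblasts. The fibroblasts with the most Ccl2 were unequal among themselves: the top 10% of cells held 51.4% of the fibroblast UMIs in 377P and 53.4% in RP.

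Fibroblast subsets, gated on other marker genes, differed in Ccl2. Universal fibroblasts (Pi16 and Dpp4 among the markers) had 3627 CPM in 377P and 3113 in RP. Inflammatory fibroblasts (Ptx3 and Mmp3 among the markers) had 3605 and 2996. Ligament fibroblasts (Postn and Scx among the markers) had 1201 and 1056, the lowest of the subsets in both libraries. Inflammatory over ligament fibroblasts, the level was 3.0-fold (2.91 to 3.10) in 377P and 2.84-fold (2.74 to 2.94) in RP. Inflammatory and universal fibroblasts lay close, at 0.99-fold (0.973 to 1.016) in 377P and 0.96-fold (0.94 to 0.99) in RP. Every subset was lower in RP, from 0.83-fold in inflammatory to 0.88-fold in ligament fibroblasts.

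Ccl7, the neighbour of Ccl2 and a second ligand of Ccr2, was likewise highest in fibroblasts among classes with at least 50 cells. Mast cells or basophils, at 29 and 40 cells, had more of Ccl7, at 2144 CPM in 377P and 2089 in RP. Fibroblasts had 1057.5 CPM (1043 to 1072) in 377P and 875 (863 to 888) in RP, and held 74.8% and 70.2% of its UMIs. Monocytes or macrophages had 558 CPM (527 to 591) and 710 (681 to 739). In fibroblasts the level of 377P was 1.21-fold that of RP (1.18 to 1.23), while in macrophages that of RP was 1.27-fold that of 377P (1.18 to 1.37). Perivascular cells had 141 and 188 CPM and lymphatic endothelial cells 174 and 136. In T or NK, B or plasma and epithelial cells Ccl7 lay between 34.7 and 41.1 CPM.

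Ccl8, the monocyte chemoattractant protein 2 gene, was highest in monocytes or macrophages and next in fibroblasts. Macrophages had 385 CPM (359 to 412) in 377P and 574 (548 to 601) in RP, a level 1.49-fold higher in RP (1.37 to 1.62). Fibroblasts had 131 CPM (126 to 137) and 98.4 (94.2 to 103), a level 1.33-fold higher in 377P (1.26 to 1.41). All other classes with at least 50 cells lay between 3.03 and 15.5 CPM. Because fibroblasts were many, they held 60.1% of the Ccl8 UMIs in 377P and 40.4% in RP, against 18.7% and 36.1% in macrophages.

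**Figure D1:**
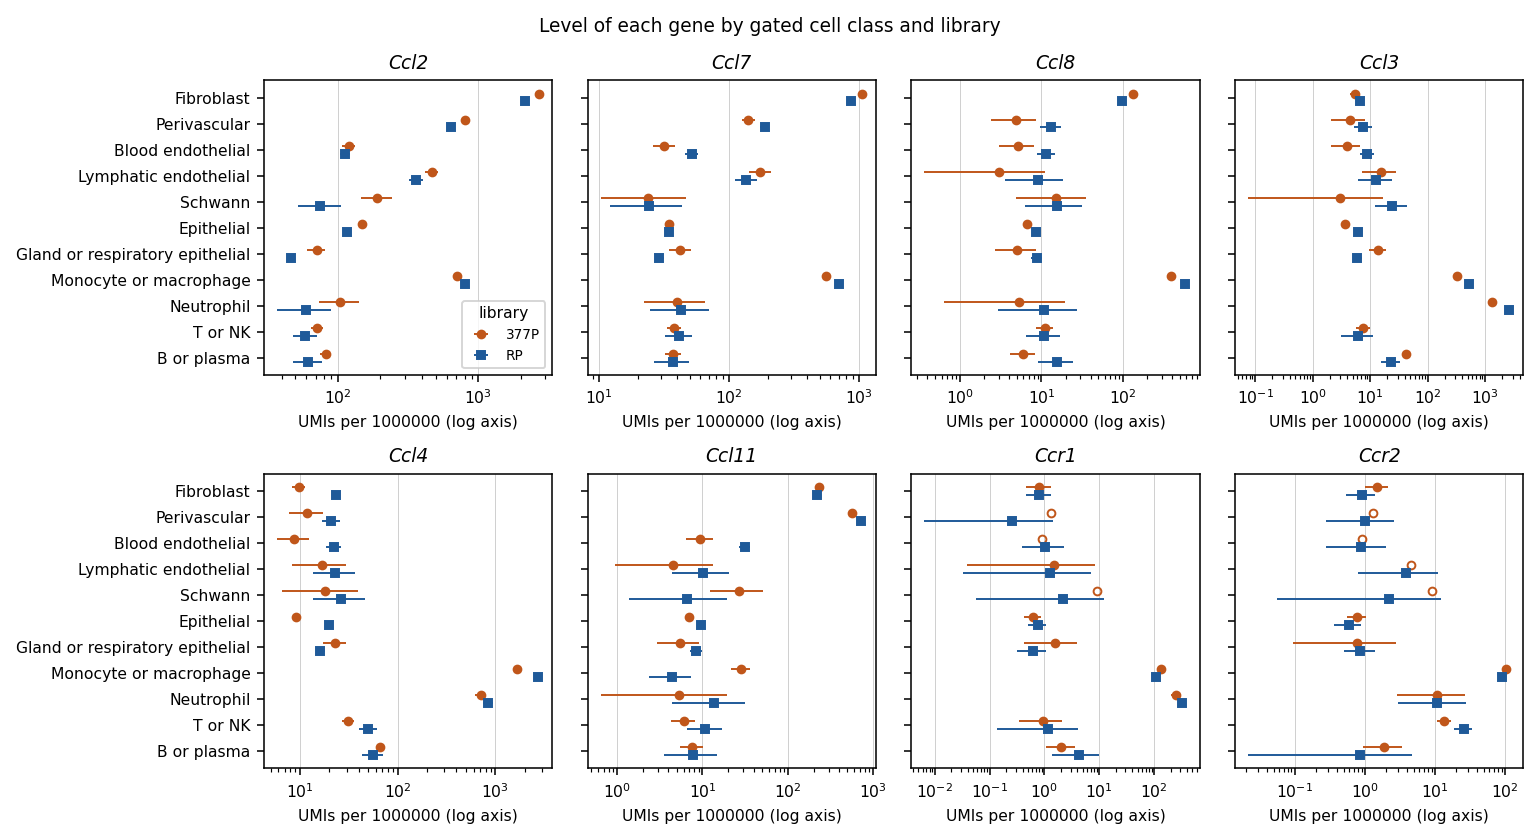
Level of each gene (UMIs per 1000000 UMIs, log axis) in the 11 classes with at least 50 cells per library, for 377P (circles) and RP (squares), with exact 95% Poisson intervals; an open symbol stands for no UMI and sits at the floor of 3 counts. Fibroblasts lead for Ccl2 and Ccl7, and monocytes or macrophages for Ccl8, Ccl4 and Ccr2, in both libraries. Neutrophils lead for Ccl3 and Ccr1, and perivascular cells for Ccl11, also in both.

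Within the macrophage class, Ccl8 separated the subsets most. Resident macrophages (C1qa, Folr2 and Cd163 among the markers) had 886 CPM (825 to 951) in 377P and 1070.5 (1021 to 1122) in RP. Monocytes (Ly6c2 and Plac8 among the markers) had 3.82 CPM (0.463 to 13.8), from 2 UMIs, and 33.0 (20.1 to 50.9), from 20 UMIs in 2 of 116 cells. Spp1 macrophages (Spp1 and Trem2 among the markers) had 12.9 CPM, from 4 UMIs, and 129 CPM. The resident subset exceeded monocytes 232-fold (64.0 to 1918) in 377P and 32.5-fold (21.0 to 53.3) in RP.

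Resident macrophages made up 41.3% of the class in 377P (36.0 to 46.8) and 56.4% in RP (52.5 to 60.3, exact binomial). Within that subset alone, Ccl8 was 1.21-fold higher in RP (1.11 to 1.32), a smaller fold than in the whole class. The UMIs were held by few cells: in resident macrophages of 377P the top 10% of cells held 91.2% of them and a single cell 191 of 774. The share of resident macrophages with a Ccl8 UMI was 15.2% in 377P and 29.7% in RP after thinning, and 30.4% and 41.8% before it. The thinned shares in B or plasma cells were 0.65% and 1.47%.

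Ccl2 and Ccl7 were also higher in resident macrophages than in monocytes. For Ccl7 the fold was 8.97 (6.89 to 11.9) in 377P and 8.54 (6.85 to 10.8) in RP. For Ccl2 it was 2.42 (2.09 to 2.81) and 3.66 (3.16 to 4.25). The resident subset stood above the Spp1 macrophages too, 3.65-fold and 3.54-fold for Ccl7. So the order resident macrophage, Spp1 macrophage, monocyte held for Ccl7 in both libraries, and the intervals of neighbours in it did not overlap.

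The inflammatory fibroblast subset led for Ccl8 among fibroblasts. Its level was 259 CPM (244 to 275) in 377P and 160.4 (146 to 176) in RP. Universal fibroblasts had 105 and 78.9 CPM and ligament fibroblasts 71.4 and 68.0. In inflammatory fibroblasts Ccl8 was 0.62-fold in RP (0.55 to 0.69), and in ligament fibroblasts 0.95-fold (0.81 to 1.12), an interval that holds 1.

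Ccl3, the macrophage inflammatory protein 1 alpha gene, had its highest level in neutrophils. Macrophages held more of its UMIs, 25.7% in 377P and 42.4% in RP, against 18.5% and 23.8% in neutrophils. Neutrophils had 1307 CPM (1194 to 1428) in 377P and 2554 (2394 to 2722) in RP, from 491 and 947 UMIs. The level in RP was 1.95-fold that in 377P (1.75 to 2.18), just under the 2-fold limit. Under Leiden clusters the levels were 1708 and 2205 CPM and the log2 ratio 0.37. Monocytes or macrophages had 325 CPM (301 to 351) and 522 (498 to 548), 1.60-fold higher in RP (1.47 to 1.76). B or plasma cells had the higher level in 377P, at 42.0 CPM (36.9 to 47.6) and 23.1 (15.2 to 33.7).

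Neutrophils were shallow cells, with median depths of 2622 and 1741 UMIs. After thinning, 58.7% of them in 377P and 72.0% in RP had a Ccl3 UMI, against 70.6% and 79.3% before. In T or NK cells, a class with little of the gene at median depths of 4448 and 3387 UMIs, the shares were 0.98% and 1.11% after thinning and 2.84% and 2.0% before. The remaining classes with at least 50 cells lay between 2.99 and 24.3 CPM. Ranked by the geometric mean of both libraries, each class from the fifth on overlapped the one above in the range between its 2 library levels. By exact intervals, B or plasma cells (15.2 to 33.7) and lymphatic endothelial cells (6.15 to 23.6) also overlapped in RP. Of the Ccl3 UMIs of 377P, 29.6% lay in cells without a class, and the 2 cells of that library with the most, 68 and 55 UMIs, were among them.

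Ccl4, the macrophage inflammatory protein 1 beta gene, was highest in monocytes or macrophages. They had 1655 CPM (1600.4 to 1711) in 377P and 2755.5 (2698.5 to 2813) in RP, and held 52.1% and 66.2% of its UMIs. The level in RP was 1.67-fold that in 377P (1.60 to 1.73). Neutrophils had 708 CPM (625 to 798) and 847 (756 to 946), 1.20-fold higher in RP (1.01 to 1.41). B or plasma cells had 66.0 and 55.7 CPM and T or NK cells 31.1 and 50.2.

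Resident macrophages led for Ccl4 as well. In 377P, resident macrophages had 2836 CPM of Ccl4, Spp1 macrophages 547 and monocytes 235. In RP, resident macrophages had 4397 CPM, monocytes 788 (719 to 862) and Spp1 macrophages 736 (670 to 807), the last pair with overlapping intervals. The resident subset stood 12.1-fold above monocytes in 377P (10.1 to 14.6) and 5.58-fold in RP (5.09 to 6.14). For Ccl3, resident macrophages had 508 and 768 CPM, monocytes 143 and 306 and Spp1 macrophages 113 and 196. Resident over monocyte, the Ccl3 folds were 3.55 (2.77 to 4.59) and 2.51 (2.15 to 2.94).

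Monocytes had the largest ratio between the libraries for both genes among the 3 subsets. Their Ccl4 was 3.35-fold higher in RP (2.74 to 4.12), against 1.55-fold in resident (1.48 to 1.62) and 1.35-fold in Spp1 macrophages (1.13 to 1.61). Their Ccl3 was 2.14-fold higher (1.63 to 2.83), against 1.51-fold and 1.74-fold. The monocyte subset held 84 cells in 377P and 116 in RP.

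A low level of Ccl4 was found in classes not known as its source, and it was higher in RP in most of them. Fibroblasts had 9.70 CPM (8.38 to 11.2) in 377P and 23.4 (21.4 to 25.6) in RP. Epithelial cells had 9.22 and 19.9 CPM, blood endothelial cells 8.72 and 22.1 and perivascular cells 11.9 and 21.0. In gland or respiratory epithelial cells the level was higher in 377P, at 22.7 and 16.2 CPM, with 38 of the 59 UMIs of 377P in 1 cell. Under Leiden clusters that direction turned, to 1.53 on the log2 scale (RP over 377P). Over all kept cells the level of Ccl4 was 58.1 CPM in 377P and 118 in RP. The share of fibroblasts with a UMI was 0.58% and 2.03% after thinning and 6.60% and 10.9% before. With the lowest class level of each library subtracted, the log2 ratio in fibroblasts was 2.87, against 1.27 without. The level subtracted in 377P, 8.72 CPM, lay within the fibroblast interval, so the value of 2.87 rests on a small remainder. The part of free RNA in these low levels was not tested.

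**Figure D2:**
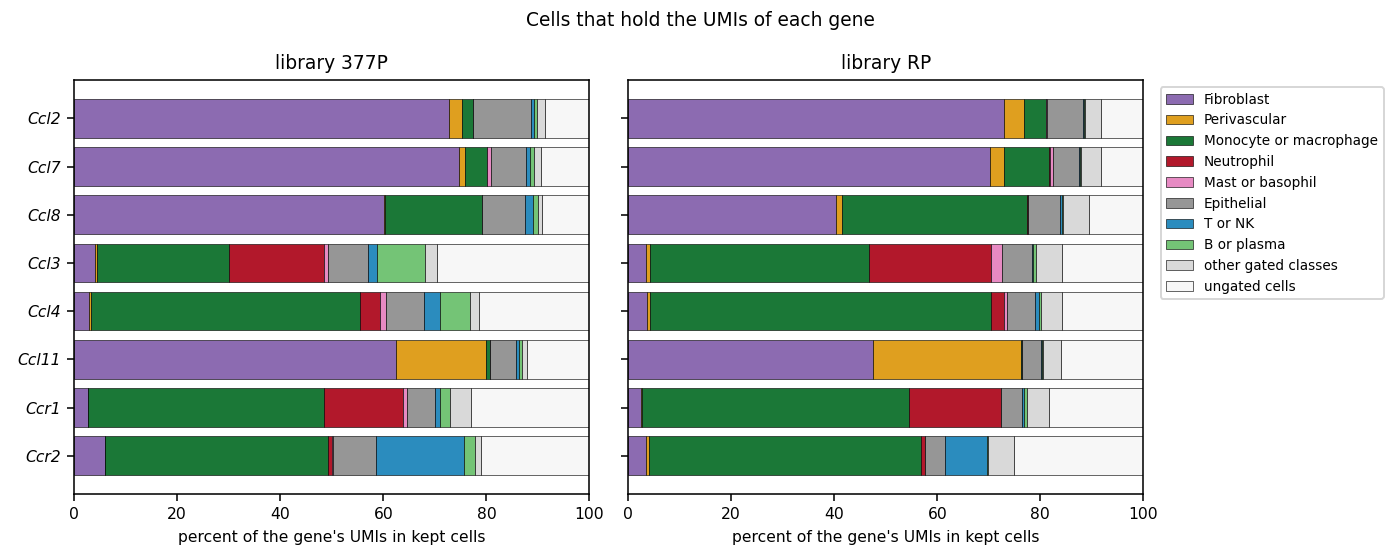
Percent of each gene's UMIs in kept cells that lay in each gated class and in cells without a class, for 377P (left) and RP (right). Fibroblasts hold 72.8% and 72.9% of Ccl2 and monocytes or macrophages hold 52.1% and 66.2% of Ccl4.

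Ccl11, the eotaxin 1 gene, was highest in perivascular cells, the pericytes and smooth muscle cells of vessel walls. They had 566 CPM (535 to 598) in 377P and 727 (701 to 754) in RP, 1.28-fold higher in RP (1.20 to 1.37). With cells thinned to 1000 UMIs the log2 ratio was -0.013. Fibroblasts had 233 CPM (226 to 240) and 222 (216 to 228), 0.95-fold in RP (0.92 to 0.99). Fibroblasts held 62.4% of the UMIs in 377P and 47.4% in RP, and perivascular cells 17.5% and 28.8%.

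Few perivascular cells carried the gene. A Ccl11 UMI was found in 16.1% of them in 377P and 20.3% in RP, and in 11.8% and 13.9% after thinning. The top 10% of cells held 95% and 93.5% of the UMIs. Epithelial cells had a UMI in 0.80% and 1.07% after thinning, at median depths of 14226 and 9783 UMIs against 4155.5 and 3394 in perivascular cells. In fibroblasts the gene was spread more widely, with a UMI in 38.3% and 39.4% of cells and in 15.7% and 16.7% after thinning.

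Inflammatory fibroblasts had 421 CPM of Ccl11 (401 to 441) in 377P and 412 (389 to 436) in RP. Universal fibroblasts had 236 and 212 CPM and ligament fibroblasts 82.6 and 93.4. The inflammatory subset stood 5.09-fold above the ligament subset in 377P (4.52 to 5.75) and 4.41-fold in RP (3.95 to 4.93). It did not differ between the libraries beyond counting error, at 0.98-fold (0.91 to 1.05).

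Blood endothelial cells had 9.32 CPM of Ccl11 (6.33 to 13.2) in 377P and 31.3 (26.9 to 36.3) in RP, 3.36-fold higher (2.29 to 5.10). The share of these cells with a UMI was 5.53% in 377P and 5.12% in RP, and 1.13% and 1.72% after thinning. The 31 UMIs of 377P lay in 25 cells and the 180 of RP in 63, of which 1 held 25. In monocytes or macrophages Ccl11 was 28.1 CPM in 377P and 4.34 in RP. There, 43 of the 59 UMIs of 377P lay in a single cell of the monocyte subset. Without that cell the monocyte subset fell from 89.8 to 7.79 CPM, against 1.65 CPM from 1 UMI in RP, and the whole class to 7.66 CPM.

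Ccr1, a receptor of Ccl3 among others, was highest in neutrophils. They had 250.2 CPM (202 to 306) in 377P and 326 (271 to 390) in RP, 1.30-fold higher with an interval that holds 1 (0.99 to 1.73). Monocytes or macrophages had 134 CPM (119 to 150) and 109 (98.3 to 121). All other classes with at least 50 cells lay at 4.29 CPM or lower. After thinning, 25% and 34.8% of neutrophils had a Ccr1 UMI, against 0.24% and 0.59% of B or plasma cells. Before thinning the shares were 47.1% and 46.9% against 0.65% and 1.44%.

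Among macrophage subsets, Ccr1 in 377P ran from monocytes at 218 CPM (180 to 262) to Spp1 macrophages at 132 (94.7 to 179) and resident macrophages at 93.9 (74.7 to 117). In RP, monocytes had 155 CPM (125 to 190), resident macrophages 126 (109 to 144) and Spp1 macrophages 37.2 (23.6 to 55.9). Monocytes led in both libraries, but their interval overlapped that of the resident subset in RP. In Spp1 macrophages Ccr1 was 0.28-fold in RP (0.16 to 0.48), from 41 and 23 UMIs.

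Ccr2, the receptor of Ccl2 and Ccl7, was highest in monocytes or macrophages. They had 104 CPM (90.5 to 119) in 377P and 91.5 (81.3 to 103) in RP, and held 43.3% and 52.8% of its UMIs. The ratio of 0.88-fold had an interval that holds 1 (0.74 to 1.05). T or NK cells were second, at 13.6 CPM (10.9 to 16.8) and 25.7 (18.7 to 34.3), 1.88-fold higher in RP (1.28 to 2.73). Neutrophils had 10.6 and 10.8 CPM, from 4 UMIs in each library. All remaining classes with at least 50 cells lay at 3.85 CPM or lower.

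Monocytes had the most Ccr2 of the 3 named macrophage subsets, at 157 CPM (125 to 195) in 377P and 178 (146 to 215) in RP. Resident macrophages had 56.1 and 77.3 CPM and Spp1 macrophages 61.2 and 50.2. Monocytes stood 2.79-fold above resident macrophages in 377P (1.94 to 4.06) and 2.30-fold in RP (1.76 to 3.0). The direction was thus opposite to that of the ligands Ccl2, Ccl7, Ccl8, Ccl3 and Ccl4, each of which was higher in resident macrophages than in monocytes in both libraries. Cells of the class that met no subset gate had 173 CPM of Ccr2 in 377P and 80.8 in RP.

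Among T or NK cells the level of Ccr2 was higher in cells with transcripts of interleukin-17 and gamma-delta T cells. This split was chosen after the values had been seen. Cells with at least 2 of Trdc, Il17a and Cd163l1 had 73.1 CPM (44.7 to 113) in 377P and 66.6 (40.1 to 104) in RP, from 73 and 77 cells. Cells with none of the 3 had 10.9 CPM (8.37 to 14.0) and 16.6 (10.5 to 24.9). Those with 1 of the 3 had 11.2 CPM, from 4 UMIs, and 37.2, from 3 UMIs. The first kind made up 73 of 1231 T or NK cells and 20 of 86 Ccr2 UMIs in 377P, and 77 of 451 cells and 19 of 45 UMIs in RP.

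**Figure D3:**
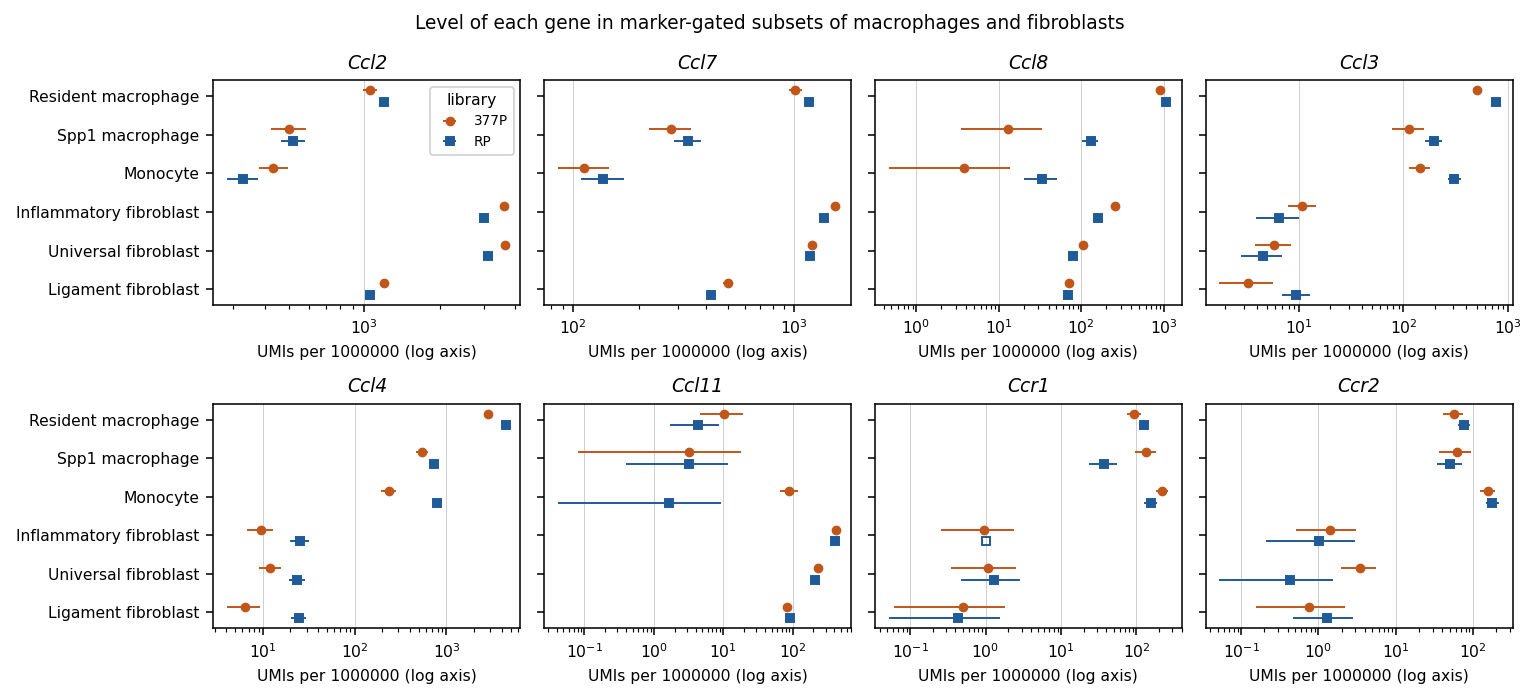
Level of each gene (UMIs per 1000000 UMIs, log axis) in 3 subsets of macrophages and 3 of fibroblasts, for 377P (circles) and RP (squares), with exact 95% Poisson intervals; the open square stands for no UMI and sits at the floor of 3 counts. Resident macrophages lie above monocytes for Ccl2, Ccl7, Ccl8, Ccl3 and Ccl4, and below them for Ccr2.

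Some pairs of members were often found in the same cells, and others were not. In this count each cell was thinned to 1000 UMIs. Of fibroblasts with a Ccl2 UMI, 53.9% in 377P (51.2 to 56.5) and 51.0% in RP (48.7 to 53.4) also had Ccl7, against 19.6% and 18.3% of those without Ccl2. Perivascular cells with Ccl2 had Ccl11 in 40.8% (31.0 to 51.2) and 46.9% (39.7 to 54.2), against 4.26% and 6.21% of those without it. For the same pair in fibroblasts the shares were 18.5% and 18.8%, against 12.6% and 14.8%.

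In monocytes or macrophages with Ccl3, 69.4% in 377P (54.6 to 81.7) and 79.5% in RP (72.4 to 85.5) had Ccl4, against 30.4% and 41.9% of those without Ccl3. In neutrophils the shares were 33.3% (21.1 to 47.5) and 32.6% (23.4 to 43.0), against 10.5% (2.94 to 24.8) and 5.41% (0.661 to 18.2). The neutrophil intervals overlapped in 377P and not in RP. Pairs with a receptor differed from this. Neutrophils with Ccl3 had Ccr1 in 25.9% and 36.8%, against 23.7% and 29.7% of those without Ccl3. Monocytes or macrophages with Ccl4 had Ccr1 in 8.55% and 11.3%, against 14.6% and 8.05%. For Ccl4 and Ccr2 the shares were 5.13% and 4.70%, against 11.2% and 7.05%. For Ccr1 and Ccr2 they were 2.5% and 13.3%, against 9.93% and 5.03%. In each of these pairs the intervals overlapped in both libraries. Ccl8 and Ccr2 met in few macrophages. Of those with Ccl8, 1 of 23 in 377P and 2 of 114 in RP also had Ccr2, with shares of 4.35% (0.11 to 21.9) and 1.75% (0.213 to 6.19), against 9.36% and 6.76% in the rest. These intervals overlapped in both libraries. Without thinning the shares were 12.3% (5.08 to 23.7) and 10.4% (6.28 to 15.9), against 35.0% (29.4 to 41.0) and 28.2% (24.2 to 32.5), and the intervals lay apart. Cells with both genes of a pair need not be single cells where a doublet escaped the caller.

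The members were read between the libraries against the share of all genes past 2-fold in the same class and direction. In fibroblasts all 8 had at least 20 UMIs, and 1, Ccl4, was past 2-fold higher in RP, where 3.95% of 16873 genes were, and none was past 2-fold lower, where 2.86% were. In epithelial cells Ccl4 was also the only one of 8 (2.15-fold), where 7.22% of genes were higher and 2.22% lower. In perivascular cells 1 of 6, Ccl8, was higher, where 3.39% of genes were higher and 2.37% lower, from 11 and 51 UMIs. In B or plasma cells 1 of 6, Ccl8, was higher, where 5.53% of genes were higher and 4.2% lower, from 35 and 18 UMIs. These were low levels outside the classes that led for the gene.

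Blood endothelial cells had the most calls, with 4 of 6 measured members higher in RP, where 3.54% of genes were, and none lower, where 3.19% were. They were Ccl8 at 2.25-fold (1.30 to 4.09), Ccl3 at 2.27-fold (1.22 to 4.55), Ccl4 at 2.54-fold (1.68 to 3.94) and Ccl11. The levels were low, at most 31.3 CPM, and rested on 13 to 31 UMIs in 377P. In RP, 1 cell held 11 of the 51 Ccl3 UMIs and 1 held 30 of the 127 Ccl4 UMIs. Median depth in the class was 5163 UMIs in 377P and 3175 in RP. The median log2 ratio of the 6 was 1.18, beside -0.04 for all genes of the class. Ccl2, at 120 CPM in 377P and 113 in RP, was at 0.95-fold (0.84 to 1.08). Whether free RNA from macrophages and perivascular cells took part was not tested.

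Calls lower in RP were Ccl11 in monocytes or macrophages, 1 of 8 where 2.38% of genes were lower and 5.41% higher, and it rested on the single cell described above. Ccl2 in Schwann cells was the only member measured there, at 191 CPM in 377P and 75.2 in RP, 2.55-fold higher in 377P (1.66 to 3.98), where 4.36% of genes were lower and 3.97% higher. Ccl3 in gland or respiratory epithelial cells, at 13.9 and 6.03 CPM, was 1 of 6, where 6.11% were lower and 4.53% higher, and 29 of its 36 UMIs in 377P lay in 1 cell. No member of 7 measured in T or NK cells and none of 5 in neutrophils was past 2-fold. In these 2 classes 6.2% and 7.12% of genes were higher and 2.96% and 5.31% lower in RP.

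The calls differed in how far they held under other processing. Under every alternative that was run for them, the calls of Ccl4 in fibroblasts, Ccl4 and Ccl11 in blood endothelial cells and Ccl8 in B or plasma cells stayed past 2-fold, on the same side. The call of Ccl11 in monocytes or macrophages ended without the 377P cell that held the most, at 1.76-fold higher in 377P (0.807 to 3.90), from 16 and 14 UMIs. Thinning ended the calls of Ccl4 in epithelial cells (log2 ratio 0.57), Ccl8 in perivascular cells (0.58) and Ccl2 in Schwann cells (-0.85), and put Ccl3 in blood endothelial cells at -0.10. Leiden clusters ended that of Ccl8 in blood endothelial cells (0.53) and turned that of Ccl3 in gland or respiratory epithelial cells (2.19). Ccl3 in neutrophils passed 2-fold with 1 more marker in the gate (1.16) and with a total without mitochondrial, ribosomal and secretory genes (1.01), Ccl8 in macrophages after thinning and with equal weight of cells (1.12 in both), and Ccl4 in macrophages under Leiden clusters (1.03).

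In the classes that hold them, the members differed by less than 2-fold with the gates as described, and not all one way. On the log2 scale (RP over 377P), Ccl2, Ccl7 and Ccl8 stood at -0.32, -0.27 and -0.42 in fibroblasts. In monocytes or macrophages the same 3 stood at 0.19, 0.35 and 0.58, and Ccl3 and Ccl4 at 0.68 and 0.74. None of these 8 intervals held 0. The median log2 ratio of all genes was -0.02 in fibroblasts and -0.05 in macrophages. For Ccl2, Ccl7 and Ccl8 the direction over the whole class therefore differed between fibroblasts and macrophages, each resting on 1 library per title. In fibroblasts Ccl8 was lower in RP in the inflammatory (0.62-fold) and universal subsets (0.75-fold). It was at 0.95-fold (0.81 to 1.12) in ligament fibroblasts and 0.99-fold (0.89 to 1.09) in those of no subset. Ccl7 was lower in all but universal fibroblasts, at 0.98-fold (0.944 to 1.018). Inflammatory fibroblasts made up 18.4% of the class in 377P and 14.4% in RP. The part of this in the class ratio was not tested. The subsets of the macrophage class did not all share its direction. In resident macrophages the log2 ratios of Ccl2, Ccl7 and Ccl8 were 0.19, 0.21 and 0.27. In the monocyte subset Ccl2 was lower in RP, at 0.76-fold (0.62 to 0.92). In cells of the class that met no subset gate all 3 were lower in RP, Ccl2 at 0.76-fold (0.60 to 0.96), Ccl7 at 0.73-fold (0.56 to 0.95) and Ccl8 at 0.30-fold (0.12 to 0.68).

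**Figure D4:**
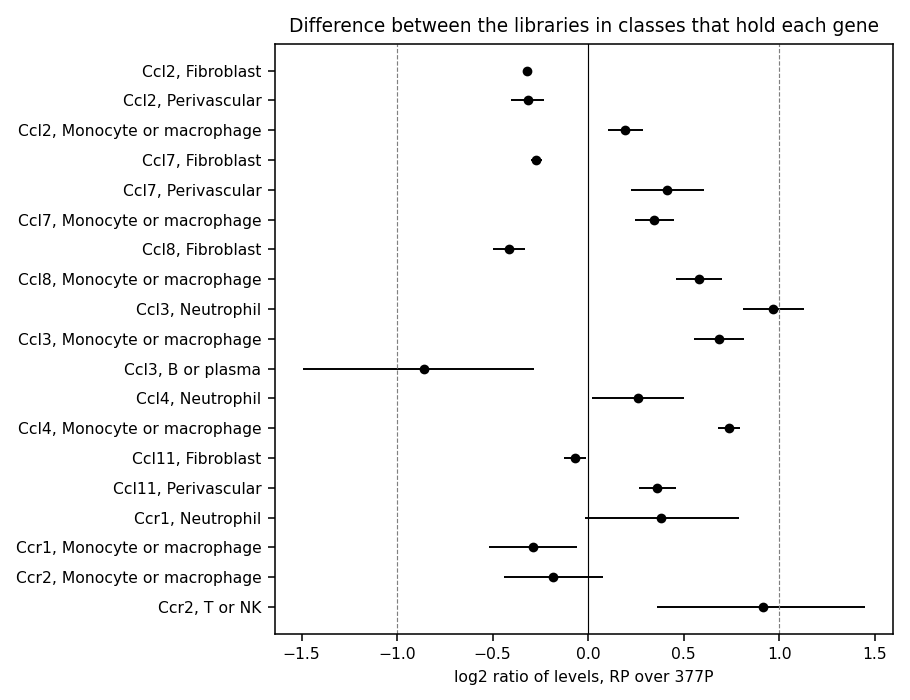
Log2 ratio of levels, RP over 377P, of each gene in the classes that hold it, with exact 95% intervals for counting error; dashed lines mark 2-fold. Ccl2, Ccl7 and Ccl8 lie below 0 in fibroblasts and above 0 in monocytes or macrophages.

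Classes too small for the order above are given as values. Mast cells or basophils numbered 29 in 377P and 40 in RP and had 2144 CPM of Ccl7 (1863 to 2455) and 2089 (1808 to 2402), from 209 and 197 UMIs, above the level of fibroblasts. A Ccl7 UMI was found in 72.4% (52.8 to 87.3) and 52.5% (36.1 to 68.5) of them, at median depths of 1723 and 1612 UMIs. Their Ccl2 was 626 and 530.3 CPM. Their Ccl3 was 205 CPM in 377P and 859 in RP, and their Ccl4 718 and 923 CPM. Both rested on few cells. For Ccl3, 1 cell held 59 of the 81 UMIs of RP. For Ccl4, 1 cell held 67 of the 70 UMIs of 377P and 1 held 45 of the 87 of RP. Osteoclasts, at 7 and 2 cells, had 16 and 3 Ccr1 UMIs, a level of 110 CPM (62.8 to 179) in 377P. No Ccr2 UMI was found in them, which by the floor of 3 counts allows up to 20.6 CPM in 377P, and by the exact interval up to 25.3. Dendritic cells, at 16 and 15 cells, had 4 and 2 Ccr2 UMIs and 10 and 41 Ccl4 UMIs.

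For each member the genes with the most similar levels were sought among 15675, over 22 points, the 11 classes in each of the 2 libraries. The measure is Pearson's r of log2(CPM + 1), a description, since the points share libraries and depth. Ccl2 and Ccl7 were nearest to each other (0.92). They were followed for Ccl2 by Fn1, the fibronectin gene (0.88), and Lrp1, an endocytic receptor gene (0.88), and for Ccl7 by Fn1 (0.92) and Gm31522 (0.91). Ccl8 was nearest to Ifi207 (0.91), Pid1 (0.91) and Mmp19, a metalloproteinase gene (0.86).

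Ccl3 was nearest to Ccr1 (0.98), Il1b, the interleukin 1 beta gene (0.97), and Tyrobp, a signalling adaptor of myeloid cells (0.96). Ccl4 was nearest to Wfdc17 (0.97), Lilrb4a, an inhibitory receptor gene (0.96), and Tyrobp (0.95). Ccl11 was nearest to Ddr2, a collagen receptor gene (0.96), Cacna1c, a calcium channel gene (0.95), and Ebf2 (0.94). Ccr1 was nearest to Tyrobp (0.98), Il1b (0.98) and Ccl3. Ccr2 was nearest to Havcr2 (0.93), E230029C05Rik (0.90) and Il10 (0.88).

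Of the other CC chemokines, 15 genes in all, 36 of 84 entries (a gene in a class) were past 2-fold between the libraries, or 42.9%. In the same classes, weighted by entries, 8.25% of all genes were. The genes behind that share were not matched to the list by level, and 1 gene can give several entries. Both limits also hold for the lists below. Ccl5, a ligand of Ccr1, was highest in T or NK cells, at 602 CPM in 377P and 1129 in RP. Ccl21a was highest in lymphatic endothelial cells (4760 and 5269 CPM), Ccl20 in epithelial cells (144 and 128 CPM), and Ccl6 in monocytes or macrophages (492 and 482 CPM). In macrophages 3 of 11 measured were past 2-fold higher in RP and 0 lower, where 5.41% and 2.38% of genes were. The median log2 ratio of the 11 was 0.16, beside -0.05 for all genes. Ccl17, a ligand of Ccr4, was 6.83-fold higher (3.57 to 14.7), at 4.76 and 32.6 CPM. In fibroblasts 3 of 13 were higher and 1 lower, where 3.95% and 2.86% of genes were. The lower one was Ccl19, a ligand of Ccr7, at 67.7 CPM in 377P and 31.6 in RP, 2.14-fold higher in 377P.

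Several further calls sat at low levels. Ccl28, Ccl24 and Ccl6 were 5.40-fold, 5.16-fold and 2.02-fold higher in the fibroblasts of RP, at 4.36, 2.09 and 6.12 CPM. In epithelial cells of RP, Ccl28, Ccl24, Ccl6 and Ccl9 were between 2.10-fold and 3.23-fold higher, at 5.33 CPM or lower. Ccl28 was highest in gland or respiratory epithelial cells (56.2 and 76.6 CPM), which numbered 182 in 377P and 1152 in RP. Ccl24 (142 and 273 CPM), Ccl6 and Ccl9 were highest in monocytes or macrophages, which numbered 334 and 645. The part of free RNA in the low levels was not tested. Ccl20 was lower in RP in perivascular, blood endothelial, T or NK and B or plasma cells, at 11.6 to 22.2 CPM in 377P and 5.13 to 5.92 in RP, and the interval for B or plasma cells held 1. In neutrophils, a value named after it had been seen, it was higher in RP, at 7.98 CPM from 3 UMIs and 56.6 from 21 (7.09-fold, 2.12 to 37.1). In gland or respiratory epithelial cells, the level of 377P over that of RP was 3.02-fold for Ccl5, 3.26-fold for Ccl9 and 3.73-fold for Ccl20. Ccl21a was 2.34-fold higher in the macrophages of RP and 2.02-fold higher in the blood endothelial cells of 377P.

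For 13 other CC and atypical receptors, 16 of 55 entries were past 2-fold, or 29.1%, beside 8.50% of all genes in the same classes. Of them 9 were measured in T or NK cells, where Ccr8 and Ccrl2 were 2.67-fold (1.49 to 4.73) and 2.74-fold (1.63 to 4.57) higher in RP. The median log2 ratio of the 9 was 0.20, beside 0.03 for all genes, of which 6.2% were past 2-fold higher and 2.96% lower. In fibroblasts 4 of 10 measured were lower in RP and 0 higher, where 2.86% and 3.95% of genes were. The median of the 10 was -0.45, beside -0.02. Ccr7, which guides lymphocytes to lymph nodes, was 12.8 CPM in the fibroblasts of 377P and 2.04 in those of RP, 6.27-fold higher in 377P, and its ratio was 5.46-fold in epithelial cells. Its leading class was T or NK, at 345 and 251 CPM, and 377P held 1231 such cells against 451 in RP. Ccr6, highest in B or plasma cells (99.5 and 84.8 CPM), was 4.90-fold higher in the fibroblasts and 3.44-fold higher in the epithelial cells of 377P, which held 1700 B or plasma cells against 348. The part of free RNA in these values was not tested.

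Upstream cytokines, their receptors and NF-kappaB genes, 22 in all, were past 2-fold in 18 of 171 entries, or 10.5%, near the 8.66% of all genes in the same classes. In monocytes or macrophages 0 of 18 measured were past 2-fold in either direction, with a median log2 ratio of -0.08 beside -0.05. Of all genes there, 5.41% were higher and 2.38% lower in RP. In fibroblasts 1 of 19 was past 2-fold, higher in RP, where 3.95% of genes were higher and 2.86% lower. In neutrophils 3 of 16 were higher in RP and 0 lower, where 7.12% and 5.31% of genes were. The median of the 16 was 0.15, beside -0.06. The 3 were Il1b at 1187 CPM in 377P and 2503 in RP (2.11-fold, 1.88 to 2.37), Tnf at 109 and 243 CPM (2.22-fold, 1.52 to 3.30) and Csf1 at 55.9 and 113 CPM (2.03-fold, 1.17 to 3.60). In T or NK cells Tnf was 2.48-fold and Il1r1, the interleukin 1 receptor gene, 3.09-fold higher in RP. Tnf and Il1a were 3.15-fold and 3.01-fold higher in epithelial cells of RP, and Il1a in gland or respiratory epithelial cells rested on 1 UMI in 377P and 119 in RP. Il6 was 2.14-fold higher in the B or plasma cells of RP and Tnf 2.36-fold higher in its blood endothelial cells. The 5 list genes with the most UMIs were Nfkbia and Rela, highest in blood endothelial cells, Nfkb1 and Tnfaip3, highest in T or NK cells, and Nfkbiz, highest in neutrophils. Nfkb1 in Schwann cells was 2.51-fold higher in 377P.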

How the data were processed

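The deposited matrices hold raw UMI counts per gene and barcode, per the file headers written by Cell Ranger 7.0.1. The genome was mm10 and the aligner STAR, run by Cell Ranger, per the submitters' processing notes. For the annotation's release and for intronic reads, details were not given in the sources used here. The 377P matrix holds 15466 barcodes and 127094166 UMIs, and the RP matrix 18112 and 120909095, with at least 500 UMIs per barcode.

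Barcodes with fewer than 200 genes (0 and 3) or over 20% mitochondrial UMIs (115 and 819) were removed, as were doublets called with Scrublet (836 and 569; Scanpy 1.11.5, expected share 12%). Classes and subsets came from marker lists. A marker counted where its UMIs exceeded the 99% Poisson quantile of free RNA, taken as 10% of the cell's UMIs drawn from the library's profile. A subset needed at least 2 markers and more than any other subset. These scoring limits were set after the data had been seen. The members and lists were chosen with earlier results of these data known.

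Counts were summed per class and library. Ratios with a count of 0 used a floor of 3 counts. Classes with at least 100 cells per library were compared, and ranks and likeness used those with at least 50. Named genes were the 8 members, list genes with at least 50 UMIs in a class and a ratio of at least 2, the 5 list genes with the most UMIs, and 3 like genes per member among genes with at least 200 UMIs. Coordinates are from GENCODE on GRCm38, matched by identifier, and promoters from RefSeq. Alternatives covered the filters, the gate, clusters in its place, thinning and the total used. Of these steps, only the ratios with their intervals and the 2-fold rule were tested on simulated counts. No p-value is given, since each title has 1 library.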

Additional observations from a re-analysis of the deposited data

How the results depend on the processing

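Of 539 log2 ratios of members recomputed under 9 alternatives, 449 stayed within the interval of the reported value, 87 moved outside it and 3 called values changed direction. Ccl3 in gland or respiratory epithelial cells turned to 1.07 with 1 more marker in the gate and to 2.19 with Leiden clusters, and in blood endothelial cells to -0.10 after thinning to 1000 UMIs. Among classes with at least 100 cells in each library, the class with the highest level stayed the same for all 8 members. This held under each of the 8 alternatives that bear on it.

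In the leading class, Leiden clusters gave -0.23 for Ccl2 and -0.19 for Ccl7 in fibroblasts, and 0.37 for Ccl3 in neutrophils. In monocytes or macrophages they gave 0.95 for Ccl8, 1.03 for Ccl4 and 0.10 for Ccr2. Thinning gave -0.28 for Ccl2, -0.24 for Ccl7, 1.12 for Ccl8, 0.73 for Ccl3, 0.63 for Ccl4 and -0.013 for Ccl11 in perivascular cells. Equal weight of cells gave -0.21 for Ccl7, 1.12 for Ccl8, 0.67 for Ccl4, 0.16 for Ccl11 and -0.47 for Ccr2. A total without mitochondrial, ribosomal and secretory genes gave -0.30 for Ccl2, and 1 more marker gave 1.16 for Ccl3. Resident macrophages alone, an alternative chosen after seeing the data, gave 0.27 for Ccl8, 0.63 for Ccl4 and 0.46 for Ccr2. Leaving out the Ccl11-rich monocyte was also chosen then, and gave -0.82 for Ccl11 in macrophages. The cause of these shifts was not tested.

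Leiden clusters set the levels, 377P before RP, to 2591 and 2206 CPM for Ccl2, 1020 and 894 for Ccl7, 224 and 433 for Ccl8, 1708 and 2205 for Ccl3, 1058 and 2166 for Ccl4 and 630 and 815 for Ccl11, to 262 for Ccr1 in RP and 78.6 for Ccr2 in 377P. With 1 more marker, Ccl8 in RP was 616, Ccl3 in 377P 1170 and Ccl4 1728 and 2931 CPM. Without thinning, 72.2% and 68.7% of Ccl2 fibroblasts had Ccl7, and 82.0% and 87.5% of Ccl3 macrophages had Ccl4. With 1 UMI in each library as the minimum, 61 of 125 entries of other chemokines were past 2-fold (36 of 84 as reported), 35 of 96 of other receptors (16 of 55) and 30 of 194 of upstream genes (18 of 171).

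Depth limits the receptors most: Ccr1 and Ccr2 had 612 and 504 UMIs in 377P and 680 and 559 in RP, over all kept cells. No paired analysis was possible because each title has 1 library. For the same reason, leaving out a replicate was not possible.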
